A study of Mus musculus with 2 samples.

Results

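Macrophages that carried complement C1q transcripts together with the chemokine transcripts Pf4 or Ccl8 were examined in single-cell RNA sequencing libraries of mouse ovarian tumors. The cells were chosen by their own transcript counts. A member had at least 5 UMIs of C1qa, C1qb and C1qc together, at least 3 UMIs of Pf4 and Ccl8 together, no UMI of Cd3d, Cd3e, Cd3g or Cd79a, and under 20 UMIs of Col1a1, Col1a2, Col3a1 and Dcn together. A UMI is the molecular tag that counts 1 captured RNA molecule. In all, 280 of 15156 kept cells met this rule, 220 of 8770 in the control IgG library and 60 of 6386 in the Activin A neutralizing antibody library.

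Female C57BL/6 mice of 6 to 8 weeks carried a peritoneal abrasion and were injected intraperitoneally with syngeneic ovarian cancer cells that lack p53 and carry myc and Hras. From the day after injection, one group received the Activin A neutralizing antibody daily and the other control IgG, for 10 days. The series' design text gives 8 antibody-treated and 7 control mice. Abraded-site tumors were pooled by group, so each group is 1 library and the spread between mice was not measured. The libraries held 98174850 UMIs for control IgG and 74117462 for the antibody, and a member had a median of 8688.5 and 6123.5 UMIs. Treatment cannot be told apart from any other difference between the libraries, no test between groups was possible, and every interval given here is a 95% interval for counting error alone. Such intervals are too narrow for a gene whose UMIs came mostly from a handful of cells.

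C1qa, C1qb and C1qc encode the subunits of C1q, the recognition molecule of the classical complement pathway, and tissue macrophages are its main source. Pf4 (Cxcl4, platelet factor 4) and Ccl8 (monocyte chemoattractant protein 2) are secreted chemokines that macrophages of many tissues transcribe. Macrophages seeded before birth and those that mature from blood monocytes can share such genes, and in tumors both take up dying cells, lipid and iron and can restrain or help T cells.

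Pf4 lies on chr5:90772435-90773383, Ccl8 on chr11:82115185-82116799 and Ms4a7 on chr19:11321039-11336146 (GRCm38, GENCODE M21). Ms4a7, a membrane protein gene, is not part of the rule. It was more abundant in members than in other C1q macrophages but was also detected in the latter. The 250 bases before each start site are shown because the results turn on these genes. They are RefSeq sequences of GRCm38.p6 (the assembly also called mm10), 5′ to 3′ on the strand of the gene. The table used holds 2 windows for Ms4a7, and the one before the outermost start is shown and searched. The windows lie at chr5:90772185-90772434 on the plus strand, chr11:82114935-82115184 on the plus strand and chr19:11336147-11336396 on the minus strand. Capitals mark 2 short motifs searched on both strands, GGAAGT, which lies within many binding sites of ETS factors such as PU.1, and TGCTGA, a half-site of MAF factors. The motifs were chosen after the sequences had been read. The first is in 19.7% and the second in 16.1% of 32851 promoter windows of that length.
Pf4: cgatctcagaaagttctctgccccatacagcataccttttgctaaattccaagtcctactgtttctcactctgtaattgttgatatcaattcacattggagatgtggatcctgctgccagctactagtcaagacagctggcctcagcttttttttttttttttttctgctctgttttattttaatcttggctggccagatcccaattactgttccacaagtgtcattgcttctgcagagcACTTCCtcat
Ccl8: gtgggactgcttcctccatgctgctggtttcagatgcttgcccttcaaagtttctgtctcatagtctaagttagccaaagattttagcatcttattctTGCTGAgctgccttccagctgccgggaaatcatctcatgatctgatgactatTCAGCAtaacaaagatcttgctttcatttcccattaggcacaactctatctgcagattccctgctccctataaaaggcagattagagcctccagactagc
Ms4a7: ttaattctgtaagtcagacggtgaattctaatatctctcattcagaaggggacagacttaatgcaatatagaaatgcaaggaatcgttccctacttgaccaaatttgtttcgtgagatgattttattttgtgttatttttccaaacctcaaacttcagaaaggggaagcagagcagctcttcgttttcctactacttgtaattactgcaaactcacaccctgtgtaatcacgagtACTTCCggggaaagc
The Pf4 window held 1 match to the ETS letters, 10 bases before the start, and the Ms4a7 window 1, 15 bases before it. The Ccl8 window held 2 matches to the MAF half-site, 152 and 100 bases before the start. A match is a description of the letters and not a binding site.

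Of the 5 label markers (C1qa, Pf4, Ccl8, Fcrls and Ms4a7), the rule did not use Ms4a7 and Fcrls. These were chosen with earlier results of these data known, so their levels are a description and not an independent check. Ms4a7 stood at 602 CPM (UMIs per 1000000 UMIs of the class, interval 568 to 638) in control members and at 580 CPM (506 to 662) in antibody members. In C1q macrophages low in Pf4 and Ccl8, which met every other condition but held under 3 UMIs of the pair, it stood at 205 and 162 CPM. Fcrls, an Fc receptor-like gene known from microglia, stood at 90.8 CPM (176 UMIs in 58 cells) and 50.3 CPM (19 UMIs in 10 cells), against 17.1 and 9.51 CPM in the low cells. After thinning each cell to 2000 UMIs, 11.6% (7.67 to 16.7) of 215 control members and 10.2% (3.82 to 20.8) of 59 antibody members held an Fcrls UMI, against 0.0400% and 0.157% of T cells. The unthinned shares were 26.4% and 16.7%. So most members held no Fcrls UMI at this depth. Ms4a7 was the more widely detected of the pair, at 63.3% and 59.3% of thinned members, against 0.520% and 0.157% of T cells. Of the thinned low cells, 2.23% and 1.42% held an Fcrls UMI and 23.3% and 12.8% an Ms4a7 UMI. Unthinned, Ms4a7 was in 86.4% and 68.3% of members and in 42.1% and 25.7% of low cells. The median depth of members was above that of T cells (5108 and 4448 UMIs).

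All 16 listed pan-macrophage genes were detected in members. Csf1r, the receptor for macrophage colony-stimulating factor, stood at 476 and 352 CPM, Cd68 at 413 and 448 CPM and Adgre1, which encodes F4/80, at 318 and 334 CPM. The median ratio of members over low cells for the 16 genes was 0.09 and 0.08 on the log2 scale. Lyve1, Timd4 and Gata6, markers of long-lived perivascular and serous macrophages, were at or near the detection limit. Lyve1 had 4 UMIs in control members and 1 in antibody members, and Timd4 had 2 and 0, where 0 has an upper interval bound of 9.77 CPM. In the low cells Timd4 stood at 1.33 and 19 CPM. Gata6, the factor of large peritoneal macrophages, had 6 and 3 UMIs. Cd163, another perivascular marker, stood at 9.29 CPM (5.51 to 14.7) in control members and 50.3 CPM (30.3 to 78.6) in antibody members, from 18 UMIs in 9 cells and 19 UMIs in 5. The 12 genes listed for large peritoneal macrophages summed to 9912 and 9363 CPM in members and to 9280 and 9563 CPM in the low cells, led by Saa3, an acute-phase gene that alone stood at 6412 and 6059 CPM in members. The median log2 ratio of the 7 genes tested against the low cells was -0.91 with control IgG and 0.02 with the antibody.

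**Figure D1:**
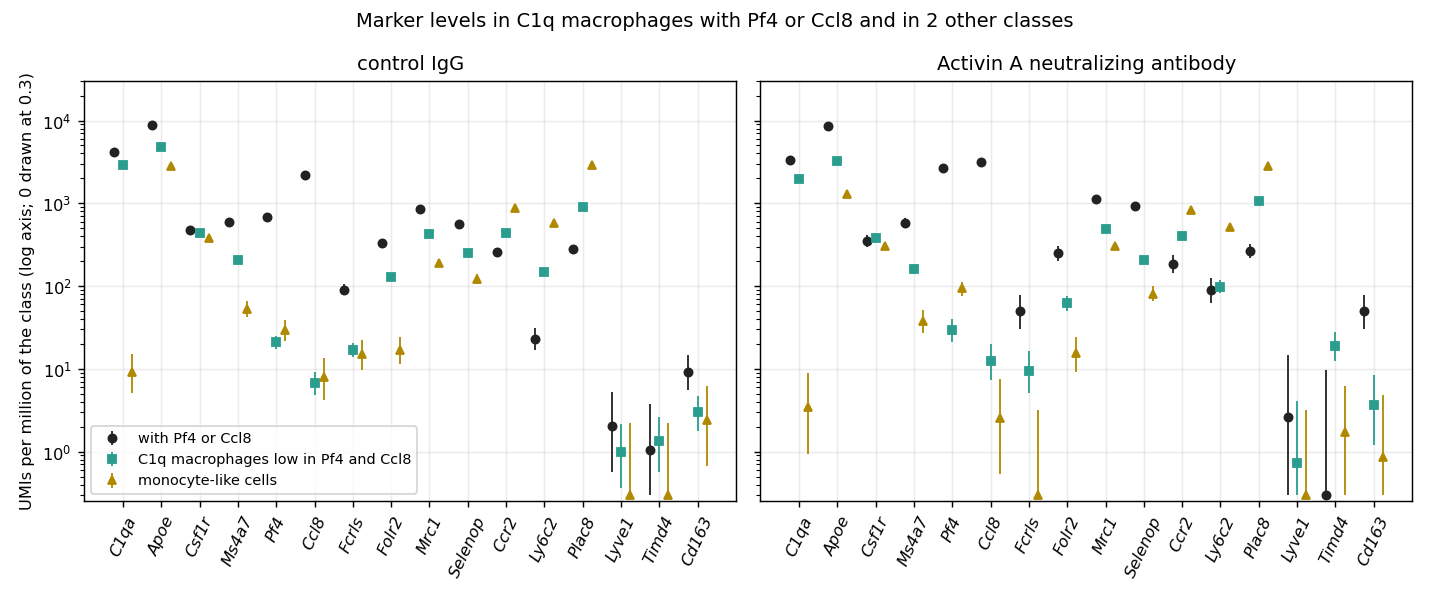
CPM (log axis, 0 drawn at 0.3) of 16 genes in members (circles), in C1q macrophages low in Pf4 and Ccl8 (squares) and in monocyte-like cells (triangles), for each library, with Poisson intervals for counting error. Ms4a7, Folr2 and Selenop sit above the low cells in both libraries while Plac8 sits below them, and Lyve1 and Timd4 stay near the floor in members. Pf4, Ccl8 and C1qa were used to choose the cells.

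Members made up a smaller share of the antibody library. They were 2.51% (2.19 to 2.86) of kept cells with control IgG and 0.940% (0.718 to 1.21) in antibody-treated tumors. The log2 ratio was -1.41 (-1.85 to -1.0). C1q macrophages as a whole were 11.4% (10.7 to 12.1) and 4.29% (3.81 to 4.82) of kept cells, also a log2 ratio of -1.41. Within C1q macrophages, members were 220 of 1000 (22.0%, 19.5 to 24.7) and 60 of 274 (21.9%, 17.1 to 27.3), a log2 ratio of 0.00 (-0.44 to 0.41). Monocyte-like cells had at least 3 UMIs of Ly6c2 and Ccr2 together, under 5 of C1q, under 20 of S100a8 and S100a9, the same T, B and fibroblast limits as members, and no UMI of Cd209a, Flt3, Ncr1, Klrb1c, Nkg7, Ly6d or Siglech. They were 2.93% and 3.12% of kept cells.

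The rule counts raw UMIs, and control members were deeper. With every cell thinned to 2000 UMIs before the rule, the log2 ratio of the share within C1q macrophages was 0.51 (-0.06 to 1.02), an interval that like the unthinned one takes in 0, while the share of kept cells kept its direction at -1.08 (-1.65 to -0.57). Just inside the limit, 34 control and 7 antibody members held exactly 3 UMIs of Pf4 and Ccl8. Just outside it, 34 and 15 cells held 2. In control cells with 0, 1, 2, 3 and 4 UMIs of the pair, Ms4a7 stood at 165, 370, 361, 421 and 555 CPM, and Folr2 at 114, 176, 202, 322 and 198 CPM. In antibody cells with 0, 1, 2, 3 and 4 UMIs, Ms4a7 stood at 109, 202, 597, 992 and 262 CPM, and Folr2 at 30.8, 202, 75.8, 209 and 295 CPM, from 15 cells at 2 UMIs, 7 at 3 and 5 at 4.

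Pf4 and Ccl8 varied widely from cell to cell. Among control members Pf4 ran from 0 to 108 UMIs per cell with a median of 3, and among antibody members from 0 to 185 with a median of 4. Ccl8 ran from 0 to 590 with a median of 3.5, and from 0 to 399 with a median of 4. The summed Pf4 level was 679 CPM (643 to 717) and 2692 CPM (2529 to 2862), but 5 cells held 24.1% of the Pf4 UMIs of control members and 58.1% of those of antibody members. For Ccl8 the levels were 2222 CPM (2156 to 2289) and 3113 CPM (2937 to 3296), with 43.7% and 63.8% in 5 cells. These genes chose the cells, so their levels are given as a description.

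As deposited, without thinning, at least 1 UMI of each chemokine was in 116 of 220 control members (52.7%, 45.9 to 59.5) and in 36 of 60 antibody members (60.0%, 46.5 to 72.4). Pf4 alone was in 69 of 220 (31.4%) and 21 of 60, and Ccl8 alone in 35 (15.9%, 11.3 to 21.4) and 3 of 60 (interval 1.04% to 13.9%). The intervals for Ccl8 alone overlap. Of T cells, 0.927% and 0.538% held a Pf4 UMI and 1.68% and 0.513% a Ccl8 UMI. In the low cells the shares were 13.3% and 15.0% for Pf4 and 4.36% and 4.67% for Ccl8. The low cells were chosen for fewer than 3 UMIs of the pair, so their shares are not a background. Whether a single UMI reflects expression was not tested. After thinning to 2000 UMIs, 57.2% of control and 78.0% of antibody members held a Pf4 UMI, and 54.9% and 57.6% a Ccl8 UMI.

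**Figure D2:**
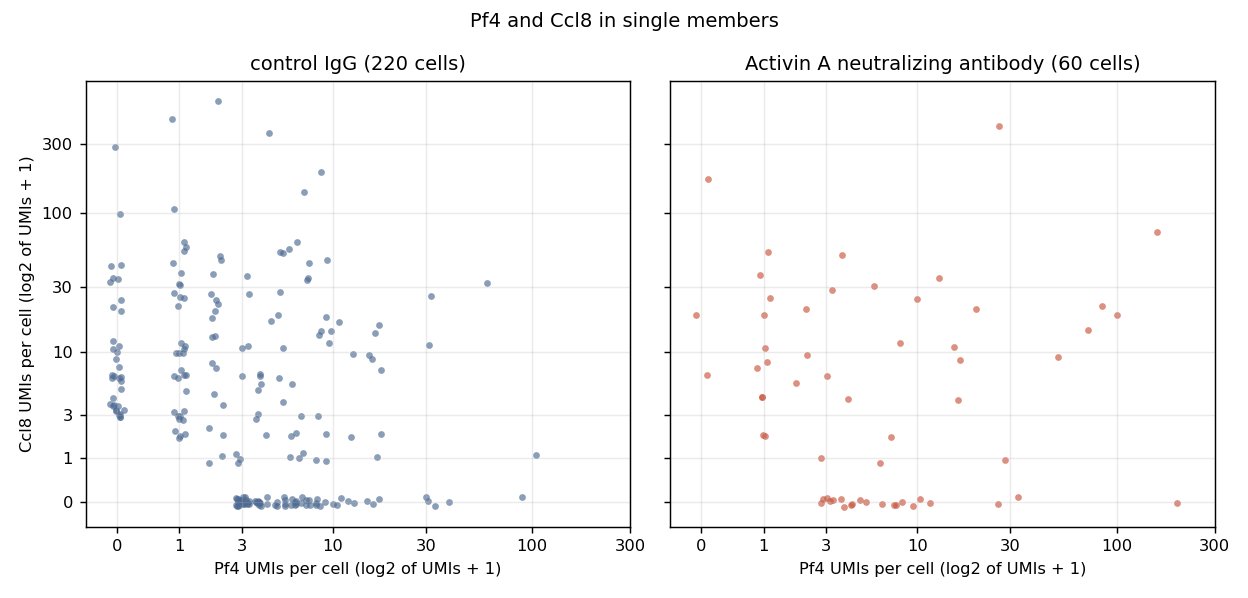
Pf4 UMIs (x axis) and Ccl8 UMIs (y axis) of each of the 220 control and 60 antibody members, on log2 of UMIs plus 1, with a small seeded jitter. The empty corner at the lower left is the rule itself, members with Pf4 alone lie along the bottom and those with Ccl8 alone along the left edge, and the points spread up to 590 Ccl8 UMIs and 185 Pf4 UMIs in a cell.

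Against C1q macrophages low in the pair, members held more of 6 of 9 tested genes known from resident-type macrophages and less of 2 of 9 known from monocytes, in both libraries. The members were chosen from these cells, so this is a description and not a test. Among 4884 genes with at least 50 UMIs in each library, 20 were 2-fold higher in members in both libraries (0.41%) and 24 were 2-fold lower in both (0.491%), where 2-fold means a log2 ratio of at least 1 in size with an interval that leaves out 0. The median log2 ratio over all genes was -0.02 in each library. None of the 7 large peritoneal macrophage genes tested was past 2-fold in both.

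Of 9 resident-type genes tested, 6 were 2-fold higher in both libraries and 0 lower, with medians of 1.17 and 1.94. Folr2, the folate receptor beta, stood at 330 CPM in members and 127 in low cells with control IgG, and at 249 and 62.2 CPM with the antibody, log2 ratios of 1.38 (1.22 to 1.53) and 2.0 (1.56 to 2.44). Cbr2, a carbonyl reductase, had ratios of 2.18 (1.88 to 2.48) and 1.98 (1.25 to 2.72). Stab1, a scavenger receptor that takes up modified lipoproteins, had ratios of 1.49 and 1.94. Selenop, which encodes the selenium carrier selenoprotein P, had ratios of 1.17 and 2.19. The other members of the 6 were Mrc1, the mannose receptor, at 1.03 and 1.22, and Wwp1, a ubiquitin ligase, at 1.33 and 2.21. The list holds 18 genes, so the 9 tested are a part of it. Of the untested ones, Cd209f and Cd209g had no UMI in members of either library. Timd4 and Cd209d had none in antibody members. Igf1 and Gas6, also of the list, had too few UMIs in the antibody library to be tested. Igf1, insulin-like growth factor 1, had log2 ratios of 2.43 (1.84 to 3.05) and 2.62 (1.5 to 3.86), and Gas6, the bridge between dying cells and phagocytes, 3.37 (2.55 to 4.34) and 3.13 (1.93 to 4.57).

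Chemokines outside the rule were also among the higher genes. Ccl12, a ligand of the monocyte receptor CCR2, stood at 111 CPM against 33.7 in control cells and at 140 against 34.4 CPM in antibody cells. Ccl7, another CCR2 ligand, had log2 ratios of 1.09 (0.81 to 1.36) and 1.83 (1.49 to 2.17). These were 2 of the 14 chemokine genes tested. Fabp5, a fatty acid carrier, had ratios of 1.58 and 1.66, Cd63, a lysosomal tetraspanin, 1.19 and 1.58, and Gja1, the gap junction protein connexin 43, 1.69 and 2.48. Tmem8 had ratios of 2.16 and 2.25.

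The lower genes included Plac8 and Hp, known from monocytes. Plac8 stood at 283 CPM in members against 895 in low cells with control IgG, and at 265 against 1077 CPM with the antibody, log2 ratios of -1.66 (-1.79 to -1.53) and -2.02 (-2.33 to -1.73). In monocyte-like cells it stood at 2913 and 2843 CPM. Hp, which encodes haptoglobin, had ratios of -1.60 and -1.94, and these were the 2 of 9 monocyte genes tested that were 2-fold lower in both libraries, with list medians of -0.99 and -1.10. Ccr2 itself had ratios of -0.76 (-0.90 to -0.62) and -1.10 (-1.49 to -0.75), and was 2-fold lower in the antibody library alone. Ly6c2, the monocyte surface marker, stood at 23.2 against 149 CPM with control IgG, a ratio of -2.66 (-3.14 to -2.25), but at 90.1 (62.4 to 126) against 98.7 CPM with the antibody, a ratio of -0.12 (-0.72 to 0.42). Of its 34 UMIs in antibody members 20 lay in 1 cell, and without the top cells the antibody ratio was -1.20 (-2.16 to -0.44). Gpr141, an orphan receptor, had ratios of -2.56 and -3.33, Ly6i -1.58 and -3.70, and Ifitm6, an interferon-induced membrane protein gene, -2.16 and -2.72. The other genes named by rule were Hopx, Napsa, Klra2, Plxdc1 and Ifitm1, with ratios from -1.11 to -2.61.

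Few antigen presentation genes were past 2-fold between the classes. Ciita, the master regulator of MHC class II genes, was the 1 of 9 MHC class II genes that was 2-fold lower in both libraries, at -1.20 (-1.52 to -0.90) and -1.37 (-2.37 to -0.59). Acod1, which makes itaconate, was also 2-fold lower in both, as were Mmp12 and Serpinb2 of the matrix list. Retnla was 2-fold higher in both, but its UMIs lay in 7 control and 4 antibody members, and in each library 1 cell held most of them, 706 of 836 and 316 of 358. The 26 macrophage transcription factors listed gave 20 tested, of which 0 passed 2-fold in both libraries. Maf stood at 185 against 97.1 CPM with control IgG, a log2 ratio of 0.93 (0.73 to 1.12), and at 297 against 118 CPM with the antibody, a ratio of 1.34 (0.97 to 1.69), past 2-fold in the antibody library alone.

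**Figure D3:**
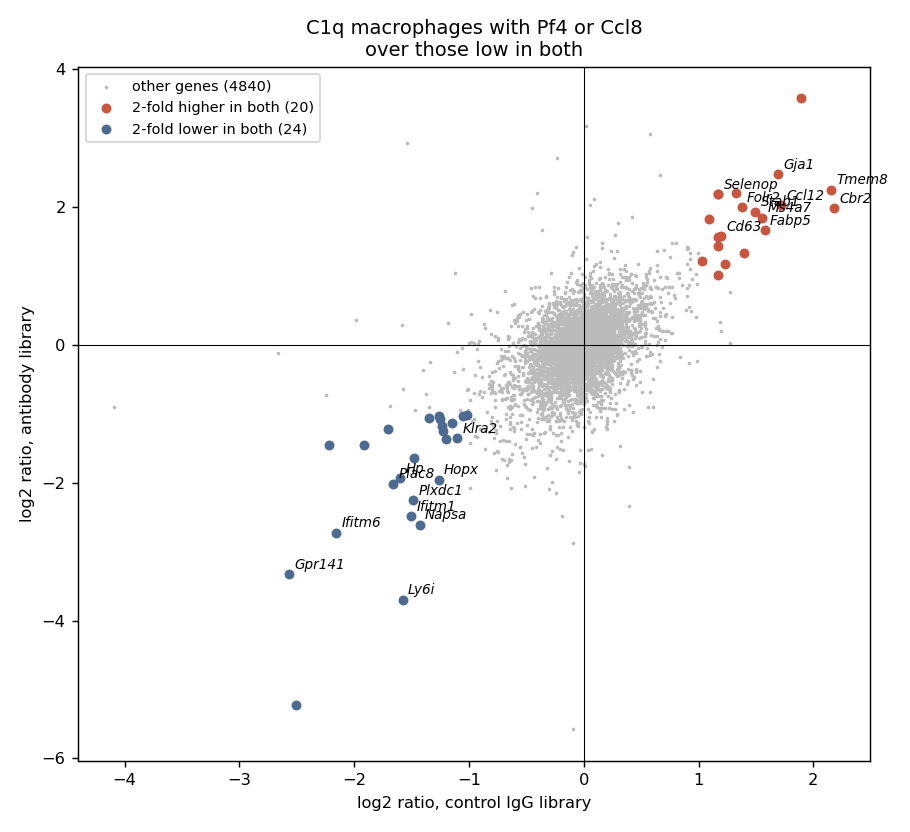
Log2 ratio of members over C1q macrophages low in Pf4 and Ccl8 for 4884 genes, control IgG library on the x axis and antibody library on the y axis. The 20 genes 2-fold higher in both libraries (red) lie at the upper right and the 24 lower in both (blue) at the lower left, and the genes named by rule are written beside their points.

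Members of the antibody library were compared with those of the control library over 5645 genes with at least 50 UMIs in the sum of both. With the antibody, 146 genes were 2-fold higher (2.59%) and 125 were 2-fold lower (2.21%), and the median log2 ratio was 0.04. The higher genes named by rule included monocyte-attracting chemokines and genes of lipid uptake and heme handling. The lower ones included Timp1, Pde4d, Pde3b and Ccl5. Without the cell richest in each gene in each library, 72 of the 146 and 124 of the 125 were still past 2-fold, with the same 5645 genes tested. Leaving out 1 cell takes a larger part of 60 members than of 220, so this lowers the antibody sums more.

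Ccl2, the main CCR2 ligand, stood at 150 CPM (133 to 168) in control members and 554 CPM (481 to 634) in antibody members, a log2 ratio of 1.88 (1.62 to 2.14). It was detected in 90 of 220 and 29 of 60 members, and 82 of its 209 antibody UMIs lay in 1 cell. Ccl7 stood at 95.5 and 387 CPM, a ratio of 2.02 (1.70 to 2.34). Without their top cells the ratios were 1.29 and 1.43. Ccl24, a chemokine for eosinophils, had a ratio of 2.62 (2.40 to 2.84), but 1 antibody member held 248 of its 373 UMIs, and 1.85 remained without the top cells. Of 16 chemokine ligands tested, 5 were 2-fold higher (Ccl2, Ccl3, Ccl7, Ccl24 and Cxcl10) and 2 lower, with a median of 0.75. In the low cells 5 of 15 were 2-fold higher and 0 lower, with a median of 0.28, beside 49 (0.869%) higher and 21 (0.373%) lower of 5636 genes. The antibody library held 214 low cells with 1367211 UMIs but 60 members with 377459. With sums of such unlike size, the shares past 2-fold in the 2 classes cannot be compared. Ccl2 and Ccl7 had ratios of 1.32 and 1.28 in the low cells and of 0.88 and 1.68 in monocyte-like cells. Ccl24 had ratios of 0.12 and 2.12 in these classes. Cxcl10, which draws T cells through CXCR3, was 1.37, and 0.24 without its top cells.

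The lower chemokines were Ccl5 and Cxcl9. Ccl5, a T cell and monocyte attractant, stood at 1736 CPM (1677 to 1795) in control members and 792 CPM (705 to 887) in antibody members, a log2 ratio of -1.13 (-1.31 to -0.96). Its antibody over control ratio was 0.28 (0.21 to 0.35) in the low cells and -1.10 (-1.30 to -0.91) in monocyte-like cells. Cxcl9, another CXCR3 ligand, stood at 384 and 175 CPM, a ratio of -1.12 (-1.52 to -0.77). It was detected in 26.0% (20.3 to 32.5) of thinned control members and 11.9% (4.91 to 22.9) of thinned antibody members, against 0.580% and 0.340% of T cells. In thinned low cells the shares were 24.0% and 19.4%. Unthinned, the shares of members were 34.5% and 13.3%. The Cxcl9 ratio was -0.05 (-0.18 to 0.08) in the low cells, -1.95 in monocyte-like cells and -1.46 in T cells. How much of the T cell value came from RNA of other cells was not tested. No chemokine receptor of the 11 tested passed 2-fold, and Ccr2 stood at 261 and 185 CPM.

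Lipid and iron genes were also among the higher ones. Cd36, which imports fatty acids, stood at 52.6 and 323 CPM, a log2 ratio of 2.62 (2.23 to 3.01), in 41 control and 17 antibody members. Of its UMIs, 5 cells held 36.3% in control and 71.3% in antibody members, and the median member had none in either library. Lpl, lipoprotein lipase, stood at 67.1 and 315 CPM, a ratio of 2.23 (1.86 to 2.60). These were the 2 of 15 lipid genes past 2-fold, and the list median was 0.65. Apoe, the most abundant of them, stood at 8844 and 8472 CPM. Hmox1, which degrades heme, stood at 473 CPM (443 to 504) and 1327 CPM (1214 to 1449), a ratio of 1.49 (1.33 to 1.65), and 5 cells held 41.3% and 61.9% of its UMIs. Ncoa4, which delivers ferritin to the lysosome, had a ratio of 2.68 (1.92 to 3.45) from 28 and 35 UMIs. They were the 2 of 9 iron genes past 2-fold, with a median of 0.17, and the ferritin chains Fth1 and Ftl1 had ratios of 0.01 and 0.17. Of 21 lysosomal genes, Gpnmb alone passed, at 12.9 and 215 CPM in 10 control and 8 antibody members.

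The other higher genes named by rule were Prdx1, an antioxidant peroxiredoxin, at 1.34 (1.18 to 1.49) and 0.90 without its top cells, Ndufa4, a respiratory chain protein, at 1.5, Egr1, an immediate-early transcription factor, at 1.41, Ccdc162 at 2.91, and Chil3. Chil3, a chitinase-like secreted protein, had a ratio of 1.41, but 1 antibody member held 168 of its 198 UMIs and the ratio turned to -0.80 without the top cells. In the low cells and in monocyte-like cells Egr1 had ratios of 1.29 and 0.88 and Ccdc162 of 1.89 and 1.73. Chil3 had ratios of -0.61 and -0.40 in these 2 classes.

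Genes lower with the antibody included Timp1, Pde4d, Pde3b, Olr1 and Ltc4s. Timp1, an inhibitor of matrix metalloproteinases, stood at 692 CPM (655 to 730) in control members and 260 CPM (211 to 316) in antibody members, a log2 ratio of -1.41 (-1.72 to -1.12). Without thinning, Timp1 was detected in 138 of 220 and 22 of 60 members. Control members were deeper, so these shares are a description only. Pde4d and Pde3b, which hydrolyse cyclic nucleotides, had ratios of -1.21 (-1.57 to -0.89) and -1.41 (-2.02 to -0.90). Olr1, the receptor for oxidised LDL, had 191 and 6 UMIs, a ratio of -2.52, and Ltc4s, leukotriene C4 synthase, -1.51. Prtn3, a serine protease known from neutrophil precursors, had a ratio of -1.53. Slc38a9, the lysosomal arginine sensor, had a ratio of -1.77, Flt1, a VEGF receptor, -2.18, AA467197 -1.40, and Hps5 and Lrba, both of vesicle trafficking, -3.04 and -2.48 from 1 and 2 antibody UMIs. Tgm2, transglutaminase 2, stood at 956 and 456 CPM, and was with Timp1 1 of the 2 matrix genes of 11 past 2-fold.

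**Figure D4:**
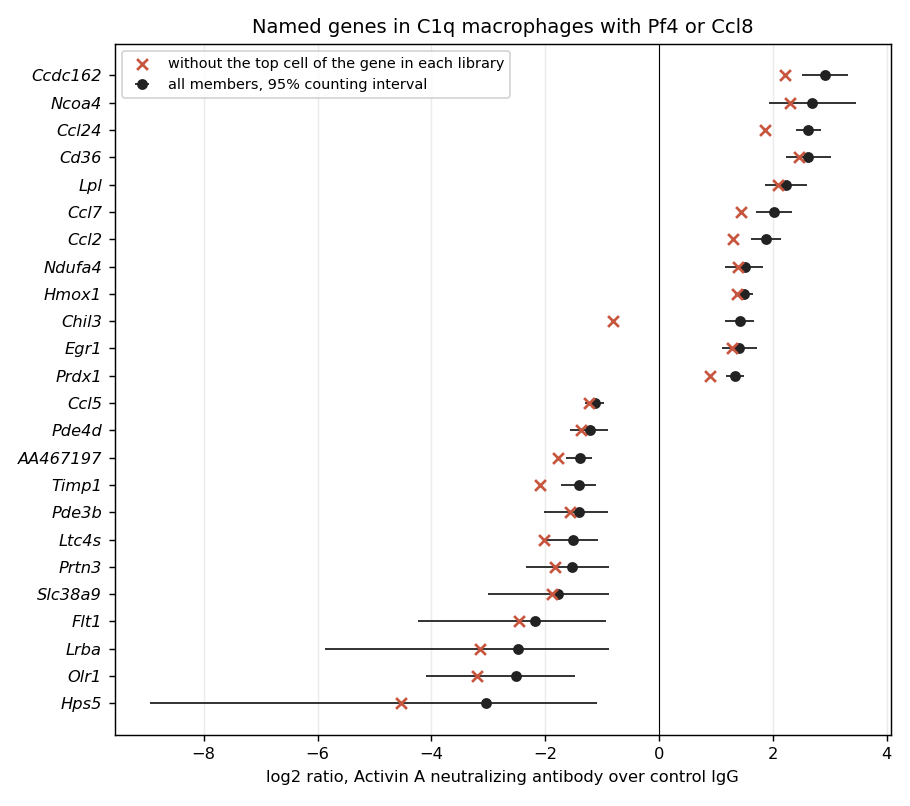
Log2 ratio of the antibody over the control IgG library in members for the 24 genes named by rule, with 95% counting intervals (dots and lines), and the same ratio without the cell richest in the gene in each library (crosses). The cross of Chil3 lies on the other side of 0, and all other crosses stay on the side of their dot.

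The resident-type and alternative activation genes gave no common direction. Of 11 resident-type genes tested, Gas6 was 2-fold higher with the antibody and Ltc4s 2-fold lower, with a median of 0.39. Folr2 had a log2 ratio of -0.40 (-0.73 to -0.09) and Mrc1 of 0.40 (0.24 to 0.55). Retnla, Chil3 and Ccl24 were the 3 of 10 alternative activation genes past 2-fold upward, each resting on few cells, and Tgm2 the 1 past it downward.

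MHC class II genes were all below 0, with none past 2-fold. The 9 tested had a median log2 ratio of -0.45. Cd74, the invariant chain, stood at 14471 and 9405 CPM, a ratio of -0.62 (-0.67 to -0.57), and H2-Ab1 at 4545 and 3161 CPM, a ratio of -0.52 (-0.61 to -0.44). H2-Ab1 was detected in 95.8% (92.2 to 98.1) and 83.1% (71.0 to 91.6) of thinned members, against 9.76% and 4.01% of T cells. In thinned low C1q macrophages the shares were 97.9% and 93.4%. Unthinned, H2-Ab1 was in 97.7% and 88.3% of members. The medians of the same 9 genes were -0.26 in the low C1q macrophages, -0.39 in monocyte-like cells and -0.66 in T cells, each from the same 2 libraries. Without thinning, 6.21% and 1.28% of T cells also held a C1qa UMI, and C1qa had a ratio of -2.26 in T cells. In free RNA, from barcodes with under 100 UMIs, MHC class II genes summed to 5988 and 3478 CPM. How much of the T cell values came from RNA of other cells was not tested. Within antibody members the summed MHC class II level was 36171 CPM in the 12 cells with 3 or 4 UMIs of Pf4 and Ccl8, 24348 CPM in the 16 with 5 to 9, and 19871 CPM in the 32 with 10 or more. In control members the corresponding levels were 36289, 32017 and 33889 CPM over 61, 52 and 107 cells. The MHC class I list had a median of 0.00 over 12 genes.

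The 21 immediate-early and heat shock genes tested, of 23 listed, all had ratios above 0. Of the 21, 7 were 2-fold higher (Fosb, Jun, Egr1, Zfp36, Nr4a1, Hspa1a and Klf4) and 0 lower, with a median of 0.91. Hsph1, below the UMI minimum, had a ratio of -1.21 (-3.75 to 0.24). Fos stood at 646 and 1219 CPM and Jun at 270 and 575 CPM. These genes respond within minutes to growth factors and stress and also to tissue dissociation. Their medians in the low C1q macrophages, monocyte-like cells and T cells were 0.80, 0.64 and 0.30, and the part of handling in the values of members was not tested. Glycolysis genes had a median of -0.37 over 22 tested, with none past 2-fold. Gapdh stood at 3515 and 2088 CPM.

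Interferon-stimulated genes had a median of 0.14 over 19 tested. Ifit2, Rsad2, Gbp4 and Cxcl10 were 2-fold higher and Cxcl9 2-fold lower. Of the higher ones, 17 of 18 antibody UMIs of Ifit2 lay in 1 cell, as did 58 of 72 of Rsad2. Among inflammatory genes, Cxcl10 and Il1rn, the interleukin 1 receptor antagonist, were 2-fold higher and Cxcl9 lower, and the median of 13 was 0.48. Of 11 checkpoint ligands Tnfsf9 passed 2-fold upward. Cd274, which encodes PD-L1, stood at 284 and 355 CPM, a ratio of 0.32 (0.04 to 0.60).

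The remaining lists held few genes past 2-fold. Of 4 large peritoneal macrophage genes tested 0 were, with a median of 0.14. Monocyte genes had a median of -0.13 over 8 tested, with Ly6c2, Chil3 and Nr4a1 higher, and Ly6c2 rested on 45 and 34 UMIs, 20 of the latter in 1 cell. Microglia-type genes had a median of -0.78 over 7 tested, with Tmem119 lower at 105 and 42.4 CPM. Trem2, a lipid-sensing receptor of tumor macrophages, stood at 623 and 458 CPM. Of 14 scavenger receptors Cd36 was higher and Marco lower, the latter with 122 UMIs in 5 control members and 1 UMI in antibody members. Gdf15, a stress-induced cytokine, was the 1 of 8 growth factor genes past 2-fold, at 1.51 and at 0.50 without its top cells. Ass1, which rebuilds arginine, was the 1 of 11 amino acid genes past 2-fold, at -1.59 (-3.18 to -0.53). Top2a was the 1 of 5 cell division genes, lower with 52 and 2 UMIs. After thinning, 3.72% of control and 3.39% of antibody members held a Top2a UMI, against 17.4% and 16.3% of T cells. None of 8 complement genes passed 2-fold, and among transcription factors Klf4 was the 1 of 20.

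Genes of the activin and TGFβ pathway summed to 2485 and 2223 CPM, led by Tgfbi, and none of the 15 tested passed 2-fold (median -0.08). The activin ligand and receptor genes were low. Activin A is a dimer of the product of Inhba, which had 4 UMIs in control members (2.06 CPM) and 8 in antibody members (21.2 CPM), too few to be tested. Of the type II receptors, Acvr2a stood at 49.5 and 50.3 CPM and Acvr2b at 2.58 and 7.95 CPM. Of the type I receptors, Acvr1 stood at 23.2 and 18.5 CPM and Acvr1b at 19.6 and 29.1 CPM, and Acvr1c had no UMI. The antagonist Fst and the subunit Inhbb also had no UMI in either library. Smad2, Smad3 and Smad4, the intracellular mediators, had ratios of -0.08, 0.33 and -0.40, and the inhibitor Smad7 of 0.59, with intervals that all include 0. Tgfb1 stood at 196 and 193 CPM. The target Tgfbi had a ratio of -0.24 (-0.39 to -0.10). Skil stood at 159 and 117 CPM, and Bambi at 27.4 and 21.2 CPM.

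**Figure D5:**
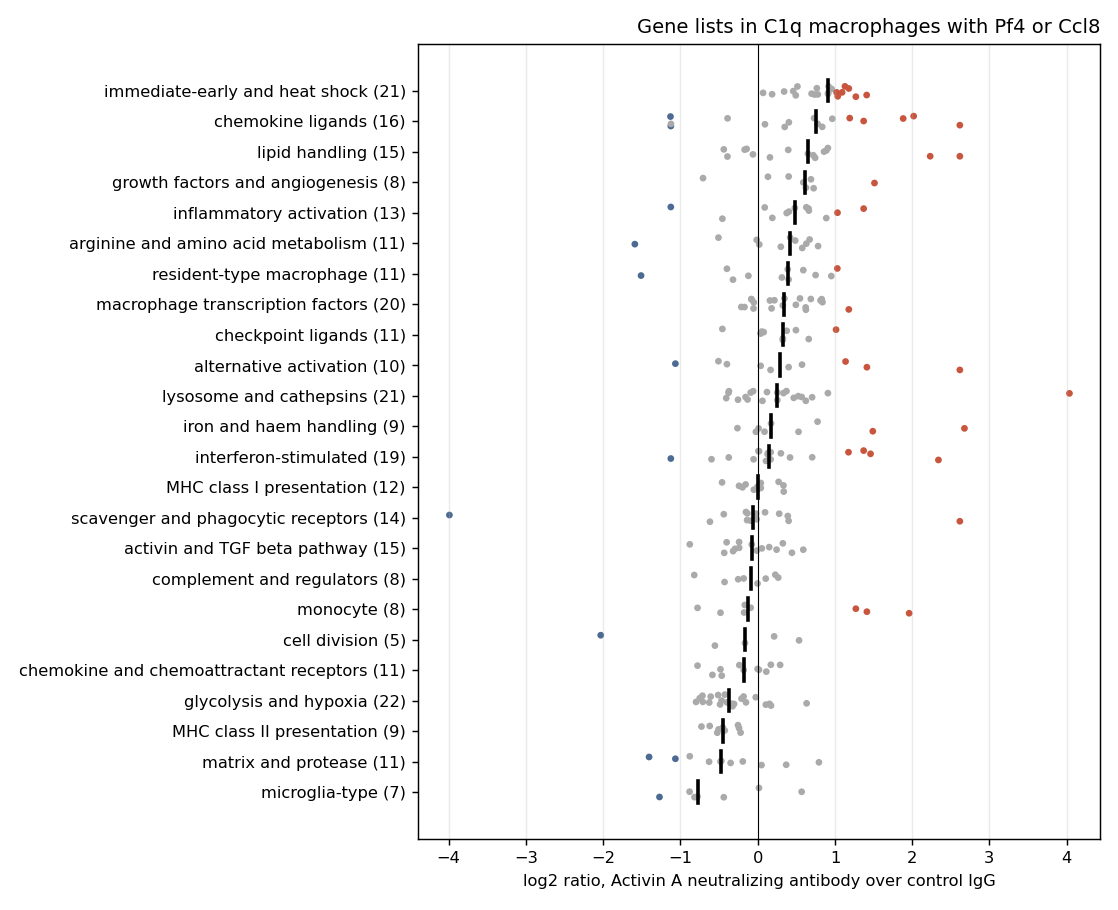
Log2 ratios of the antibody over the control IgG library in members for the genes of each list with 5 or more tested (number in brackets). Points are genes, red 2-fold higher and blue 2-fold lower, and black bars are list medians. The immediate-early list lies wholly above 0 with a median of 0.91 and the MHC class II list wholly below it with a median of -0.45.

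Among control members, cells with Pf4 alone were compared with those with Ccl8 alone. Cxcl9, Ccl12, C3 and Cfb were among the genes higher in the latter, and Spp1 and Cxcl2 among those higher in the former. The 69 Pf4-only cells had at least 3 Pf4 UMIs and no Ccl8 UMI, and the 35 Ccl8-only cells the reverse. Over 2954 genes, 50 were 2-fold higher (1.69%) and 37 were 2-fold lower (1.25%) in the Pf4-only cells. Only 3 antibody members carried Ccl8 alone, so the comparison was made in control members only.

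Cxcl9 stood at 68.4 CPM in Pf4-only cells and 1047 CPM in Ccl8-only cells, a log2 ratio of -3.92 (-4.43 to -3.47). The complement genes C3 and Cfb stood at 251 and 148 CPM in Pf4-only cells against 638 and 336 CPM, ratios of -1.34 (-1.66 to -1.03) and -1.18 (-1.60 to -0.76). Ccl12 had a ratio of -2.37, Wfdc17 of -1.55, Naaa, which hydrolyses acylethanolamides, of -1.24, and the paired membrane protein genes Tmem176a and Tmem176b of -1.38 and -1.33. In the other direction, Spp1, osteopontin, stood at 3223 against 1380 CPM, a ratio of 1.22 (1.07 to 1.38). The neutrophil attractant Cxcl2 had a ratio of 1.15, Ccl3 of 2.06, the clotting factor gene F13a1 of 1.05, Plcb1 of 1.28, Ifitm1 of 2.0, and Adssl1 and Nsd2 of 1.53 and 1.60. Ms4a7 stood at 425 and 409 CPM, a ratio of 0.05 (-0.26 to 0.38).

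Markers of other cell types were low in members, with a few exceptions that lay in single antibody cells. The summed level of 12 T cell genes was 35.1 and 42.4 CPM, led by Trbc2 in control and Cd8a in antibody members, with the Cd3 genes at 0 by rule, against 6090 CPM in control T cells. Natural killer genes summed to 39.7 and 55.6 CPM, B cell genes, mainly Ighm, to 126 and 13 UMIs, cancer cell genes to 39.7 and 63.6 and dendritic cell genes to 235 and 225 CPM, most of the last from Irf8. Fibroblast genes summed to 301 and 273 CPM, mainly Gsn, against 1181 and 2072 CPM in barcodes with under 100 UMIs, taken as free RNA. Pdgfra was at 0 in both libraries. Neutrophil genes summed to 79.0 and 109 CPM, mainly Csf3r, with Ly6g at 0 in both. S100a8, of that list, had 49 and 3 UMIs and was 2-fold lower with the antibody. Endothelial genes, mainly Pecam1, summed to 93.9 and 117 CPM, and mast cell genes to 1.55 and 2.65 CPM.

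Erythroid genes summed to 2.06 CPM in control members and 1929 CPM in antibody members, where 1 cell held 728 of the UMIs, mainly Hbb-bs. Mesothelial genes summed to 54.7 and 985 CPM, of which Slpi accounted for nearly all, with 338 of its 370 antibody UMIs in 1 cell and Msln and Upk3b at 0. Skeletal muscle genes summed to 36.6 and 185 CPM, with 60 antibody UMIs in 1 cell. The part of these mesothelial and muscle markers in the results was not tested. Without the member rich in erythroid UMIs, 141 genes were 2-fold higher and 127 lower with the antibody, close to the counts with it. No barcode was a member in both libraries, and 19 barcodes were kept cells in both.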

How the data were processed

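Tumors pooled within each group gave 1 library of control IgG and 1 of the Activin A neutralizing antibody. The deposited matrices are unnormalized UMI counts of 32285 gene identifiers over all barcodes, including empty droplets. Per the submitters' processing notes the authors used Cell Ranger 7.0.1 with mm10, while the file headers name Cell Ranger 4. The numbers of mice in the series' design text are those of the paper's experiment with antibody and control IgG alone, and its methods describe pooling tumors of these groups, whereas its results tie single-cell sequencing to an experiment with more arms and other numbers of mice. For neither experiment does it give the days of the design text, and it names another 10x chemistry than the labels. The deposited descriptions were followed.

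Kept barcodes had 1000 to 8500 detected genes, a total of 1000 to 100000 UMIs, and no more than 10% of them mitochondrial. No doublet caller was run. Counts were summed over cells of a class and scaled to a total of 1000000 (CPM). Log2 ratios had 0.5 UMI added to each sum. The 95% intervals, exact Poisson (CPM), Clopper-Pearson (shares) and conditional binomial (ratios), cover counting error only. Genes needed 50 UMIs, over both sums for the libraries and in each library against the low cells. Cells are not replicates, so no p-value was computed. Shares of cells with a UMI were taken after thinning to 2000 UMIs (seed 1), which left out 5 control and 1 antibody members.

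The genes named were, among those past 2-fold and detected in at least 10 cells of the higher side, the 12 highest and 12 lowest for the antibody, 10 and 10 against the low cells and 8 and 8 for Pf4 against Ccl8, ranked by the interval bound nearest 0. Rule, mitochondrial and ribosomal protein genes and unnamed gene models were left out of the ranking. In each list the 4 most abundant genes and those past 2-fold could be named, and the activin pathway was given except for an item not reported here. The members and gene lists were chosen with earlier results of these data known. The split by Pf4 and Ccl8 UMIs and the 5 Hmox1-rich cells were added after values had been seen. Genes absent from the feature table were not analysed here. Positions came from GENCODE M21 and promoters from RefSeq. The ratio step was tested on simulated Poisson sums drawn from the pooled profile. That simulation had no gathering of UMIs in few cells, so it does not cover genes where this occurred. Python 3.11.15, numpy 2.4.6, scipy 1.17.1, pandas 2.3.3 and matplotlib 3.10.9 were used.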

Additional observations from a re-analysis of the deposited data

Results flagged for a closer look

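Slpi, an antiprotease gene known from epithelia and neutrophils, went opposite ways in members relative to C1q macrophages low in Pf4 and Ccl8. Its log2 ratio was -1.54 with control IgG and 2.93 with the antibody. The difference was not tested, since each group is 1 library, and 338 of its 370 UMIs in antibody members lay in 1 cell. No group had the 4 samples needed to look for an outlying sample.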

How the results depend on the processing

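The share of members among kept cells stayed lower with the antibody under all 9 alternatives. Their share among C1q macrophages moved to a log2 ratio of 0.51 when cells were thinned to 2000 UMIs before the rule. The count of genes 2-fold higher with the antibody, 146, was 88 with Ccl8 alone in the rule, 61 with members thinned, 273 with at least 20 UMIs, 382 with no minimum, 32 with at least 200 and 65 without the top cell of each gene, where the minimum of 50 UMIs was applied to what remained. The count lower, 125, was 41 thinned, 26 with at least 200 UMIs and 220 without top cells, which take a larger part of 60 members than of 220. Centred on the median of all genes, 124 were higher and 145 lower. Against the low cells, 20 higher and 24 lower became 10 and 10 thinned and 7 and 4 with at least 200 UMIs, and the lower became 46 without top cells. Thinning and the higher minimum leave fewer genes tested. Ratios that changed sign were Retnla with Pf4 alone in the rule (-2.08), Chil3 (-1.58), Ifit2 (-3.46), Ly6c2 (-1.28), Rsad2 (-2.13) and Slpi (-3.25) with Ccl8 alone, and Chil3 (-0.80) and Ifit2 (-1.78) without top cells. The cause of the changes with Pf4 or Ccl8 alone was not tested. The top-cell and erythroid alternatives were chosen after seeing the data. No paired analysis was possible because mice were pooled into 1 library a group, and for the same reason no replicate could be left out. Depth limits what 60 antibody members can show, where 3 UMIs are 7.95 CPM.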

Other observations

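In the antibody library a large part of the UMIs of several heme and antioxidant genes lay in few members, although Hmox1 itself was detected in 158 of 220 control and 44 of 60 antibody members. The 5 members with the most Hmox1 UMIs held 3.71% of all member UMIs with control IgG and 7.43% with the antibody. In the antibody library these 5 cells held 52.5% of the UMIs of Prdx1, 40.0% of Txnrd1 (thioredoxin reductase) and 25.1% of Pf4. They also held 19 of 25 UMIs of Srxn1 (sulfiredoxin, 76.0%) and 8 of 14 of Gclm (glutathione synthesis, 57.1%). All 16 UMIs of the iron exporter Slc40a1 lay in them. The Srxn1 UMIs lay in 2 of the 5 cells, as did those of Slc40a1, and the Gclm UMIs in 3. The summed MHC class II level of the 5 cells was 9268 CPM, against 25426 CPM in the other antibody members. In the control library the 5 cells held 6.29% of Prdx1, 27.6% of Srxn1 (in 2 of the 5), 9 of 45 UMIs of Gclm, 10.7% of Txnrd1 and 1.44% of Pf4. MHC class II stood at 26451 CPM in them, against 34333 CPM in the other control members. The cells and genes were chosen after their values were seen. Gpnmb, a lysosomal membrane protein gene, had 1 of its 81 antibody UMIs in these cells.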
